A study of Mus musculus with 4 samples.

Results

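The regions described here are 592 ATAC-seq peaks of mouse limb cells at E11.5 (the stage in embryonic days), out of 37548 peaks in the E11.5 list. They were chosen as the peaks in 3 intervals of the mouse genome build mm10 that hold multicopy genes. The intervals are chr8:19000001-22000000 with defensin genes (314 peaks), chr5:14000001-16000000 with Speer genes (166 peaks) and chr4:146000001-148000000 with zinc finger genes (112 peaks). The intervals were chosen by the number of E11.5 peaks without an E10.5 counterpart, so the numbers of peaks and their lack of overlap describe the choice and support nothing.

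Chromatin accessibility was profiled in wild-type embryos, in cells pooled from forelimbs and hindlimbs, with 2 replicates per stage (E10.5 and E11.5), in a study on the regulation of the limb gene En1. The titles name the earlier stage E10.5 and the protocol E10. The cells of both stages were fixed with paraformaldehyde and cut by Tn5, an enzyme that adds adaptors for sequencing to open DNA. Each stage is represented by 1 peak list named for both replicates, so no replicate spread, no depth and no test between stages was available, and the values below describe these lists. The cells are a mixture, and a change in the share of a cell type cannot be told apart from a change per cell.

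Defensins are small antimicrobial peptides, the alpha type (Defa) best known from Paneth cells of the gut and the beta type (Defb) from epithelia. Speer genes encode glutamate-rich proteins associated with spermatogenesis, and zinc finger genes (Zfp, and Rex2) encode DNA-binding proteins, many of which silence transposable elements. Such families grow by repeated duplication, so that neighbouring copies can be nearly identical in sequence. A short read from one copy can then match several places, and the way such reads were treated is not given in the sources used here.

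Promoter sequences show how alike some of the copies are. The following are the 250 bases before the RefSeq start site (build GRCm38.p6, which has the mm10 coordinates), 5′ to 3′. On chromosome 8, 3 protein-coding genes of unnamed function had the same letters, and each start site lay under an E11.5 peak and under no E10.5 peak. They are 4930467E23Rik (chr8:19729326-19729575, plus strand), Gm15319 (chr8:20363203-20363452, minus strand) and Gm21119 (chr8:20614677-20614926, plus strand), and capitals mark a CCAAT box read on the other strand.
4930467E23Rik, Gm15319 and Gm21119: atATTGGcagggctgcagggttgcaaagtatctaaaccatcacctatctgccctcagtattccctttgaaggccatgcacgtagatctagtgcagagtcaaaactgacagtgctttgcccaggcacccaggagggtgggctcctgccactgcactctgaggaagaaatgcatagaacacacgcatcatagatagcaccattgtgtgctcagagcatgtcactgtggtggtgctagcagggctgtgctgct

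On chromosome 5, Speer4c (chr5:15714272-15714521, minus strand) and Speer4e (chr5:14938476-14938725, minus strand) are shown because they differed at 4 of 250 positions, in capitals, while an E11.5 peak covered part of the Speer4c window and none touched that of Speer4e.
Speer4c: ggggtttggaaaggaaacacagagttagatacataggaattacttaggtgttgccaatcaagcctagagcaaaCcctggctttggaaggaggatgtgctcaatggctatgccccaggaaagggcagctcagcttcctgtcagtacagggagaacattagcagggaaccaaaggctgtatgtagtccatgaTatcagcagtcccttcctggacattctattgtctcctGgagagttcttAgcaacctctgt
Speer4e: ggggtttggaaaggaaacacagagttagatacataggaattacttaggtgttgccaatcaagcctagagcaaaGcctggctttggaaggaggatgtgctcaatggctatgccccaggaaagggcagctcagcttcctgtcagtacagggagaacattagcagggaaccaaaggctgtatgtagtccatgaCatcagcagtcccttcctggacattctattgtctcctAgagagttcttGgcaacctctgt

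On chromosome 4, Rex2 (chr4:147021600-147021849, plus strand) and Zfp600 (chr4:146156577-146156826, plus strand) also differed at 4 of 250 positions, in capitals, and neither list had a peak there. The first start site of Zfp982 (chr4:147442864-147443113, plus strand) is shown beside them because both lists had a peak over it. In Zfp982 the capitals mark a CCAAT box and a GC box (GGGCGG, read here on the other strand). Rex2 and Zfp600 each held 1 match to both motifs as well, left unmarked here. The second Zfp982 start site, with no peak in either list, also held 1 of each. The motifs therefore do not set the window with a peak apart. Rex2 and Zfp600 are a close pair and do not stand for all zinc finger genes of the interval. Among 10 of these genes with 1 start site each, 300-base promoter windows were 43.3% to 96.7% identical in 45 pairs. The median was 74.7%.
Rex2: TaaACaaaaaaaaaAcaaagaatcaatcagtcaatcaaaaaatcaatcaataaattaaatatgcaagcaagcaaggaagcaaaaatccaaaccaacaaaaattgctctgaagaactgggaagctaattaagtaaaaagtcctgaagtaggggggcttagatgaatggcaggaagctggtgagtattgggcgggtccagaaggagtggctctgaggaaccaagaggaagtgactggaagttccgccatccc
Zfp600: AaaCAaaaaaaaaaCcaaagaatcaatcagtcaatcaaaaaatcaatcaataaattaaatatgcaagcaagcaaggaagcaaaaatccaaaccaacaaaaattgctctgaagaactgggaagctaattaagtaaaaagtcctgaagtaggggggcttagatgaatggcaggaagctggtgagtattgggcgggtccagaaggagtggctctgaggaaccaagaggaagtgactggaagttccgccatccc
Zfp982: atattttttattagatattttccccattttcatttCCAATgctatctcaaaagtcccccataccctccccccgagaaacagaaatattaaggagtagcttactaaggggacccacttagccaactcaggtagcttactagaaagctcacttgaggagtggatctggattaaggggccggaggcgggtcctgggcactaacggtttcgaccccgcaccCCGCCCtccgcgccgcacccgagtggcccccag

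Both motifs are common. CCAAT was found on either strand in 34.5% of 27025 promoters of the same length and GGGCGG in 32.9%, while TATAAA, found in 13.0%, was in none of the 250-base windows printed here. Such a match is a description of the letters only.

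The E11.5 list held 592 peaks in the 3 intervals and the E10.5 list 175, a ratio of 3.38. In the flanks, 2 Mb on either side of each interval, the order was the opposite, with 237 peaks at E11.5 and 545 at E10.5 (ratio 0.435). Outside the intervals as a whole the ratio was 0.371. By interval the numbers at E11.5 and E10.5 were 314 and 81 on chromosome 8, 166 and 68 on chromosome 5, and 112 and 26 on chromosome 4. The flanks of the chromosome 8 interval held 53 and 124 peaks, those of chromosome 5 held 50 and 86, and those of chromosome 4 held 134 and 335. One flank stood apart, the 2 Mb before the chromosome 4 interval, with 49 peaks at E11.5 and 48 at E10.5, and that flank itself holds zinc finger genes such as Zfp990 and Zfp980.

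Peak density at E11.5 was 104.7 peaks per Mb on chromosome 8, 83 on chromosome 5 and 56 on chromosome 4, against 19.8 over all flanks. At E10.5 it was 25 in the intervals and 45.4 in the flanks. Peaks covered 8.70% of the intervals at E11.5 and 2.07% at E10.5. In the flanks they covered 1.38% and 3.93%.

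**Figure D1:**
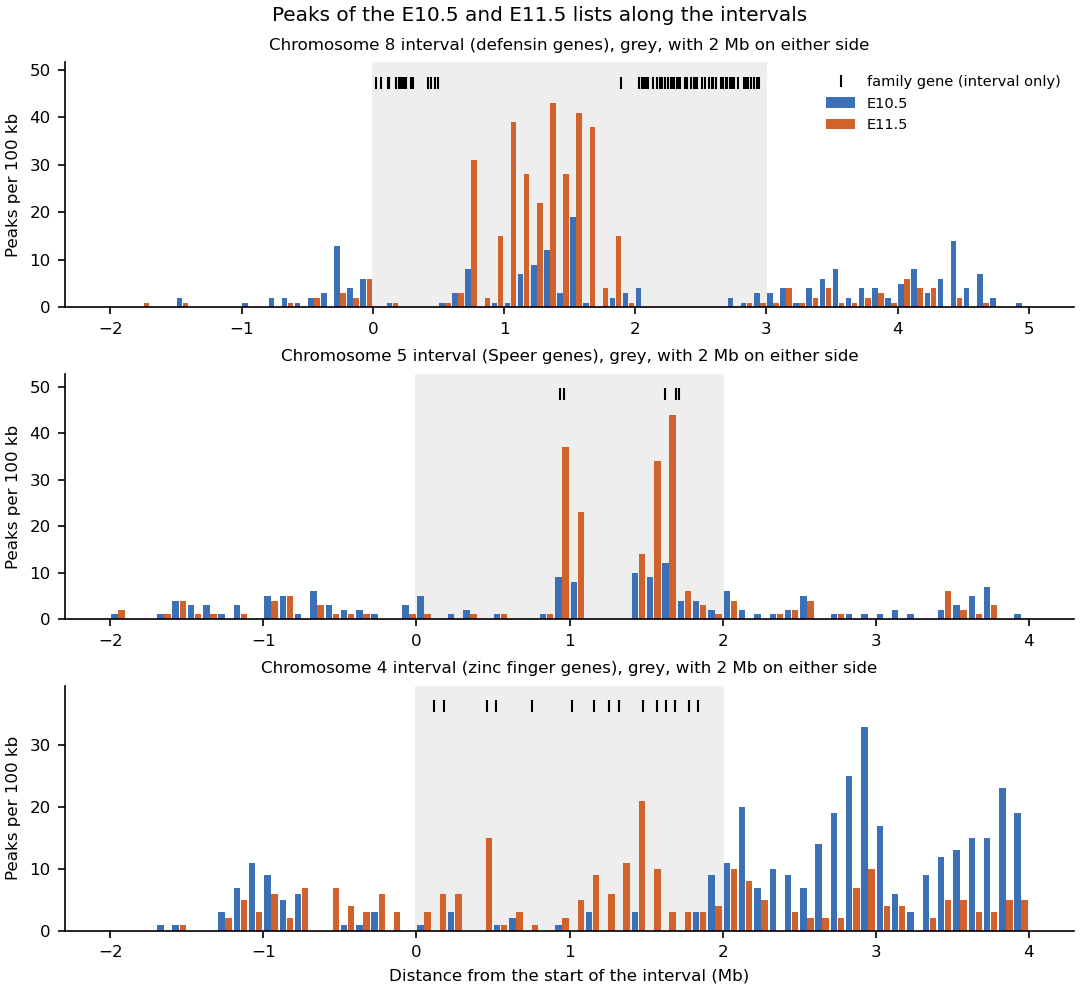
Peaks per 100 kb (y axis) in the E10.5 list (blue) and the E11.5 list (orange) along each interval (grey) and its flanks, by distance from the interval's start in Mb, with ticks for genes of the interval's family. E11.5 bars exceed E10.5 bars in blocks within the intervals, reaching 43 peaks on chromosome 8 and 44 on chromosome 5, while E10.5 bars are mostly the taller ones in the flanks.

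Over chromosomes 1 to 19, X and Y, 2517 bins of 1 Mb held a peak, and in 65 of them (2.58%) the E11.5 list had more peaks than the E10.5 list. The intervals contain 7 of these bins, 6 of which were among the 65. The bin at chr8:20000001-21000000 had the largest excess in the genome, with 259 E11.5 and 57 E10.5 peaks. Next came chr5:15000001-16000000 with 125 and 49, and chr4:147000001-148000000 with 75 and 18. The highest-ranked bin outside the intervals was chrX:94000001-95000000, with 47 and 20 peaks.

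Of the 592 E11.5 peaks, 470 (79.4%, 95% Wilson interval 75.9 to 82.5%) overlapped no E10.5 peak by at least 1 bp, against 8.22% of all E11.5 peaks. The share was 84.4% on chromosome 8, 69.3% on chromosome 5 and 80.4% on chromosome 4. These 470 peaks made up 15.3% (14.1 to 16.6%) of the 3075 E11.5 peaks without overlap in the genome. These confidence intervals treat neighbouring peaks as independent and cover counting error only. Seen from the other list, 27 of the 175 E10.5 peaks in the intervals (15.4%, 10.8 to 21.5%) overlapped no E11.5 peak, against 67.7% of all E10.5 peaks. In the flanks 66.4% of E10.5 peaks (62.4 to 70.3%) lacked an E11.5 overlap. Most of the few E10.5 peaks in the intervals thus touched an E11.5 peak, among many further E11.5 peaks. An overlap of 1 bp was enough, and high coverage raises such a share. E11.5 peaks covered 8.70% of the intervals and 1.38% of the flanks. The share expected from coverage alone was not computed.

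The bounds of the intervals were round numbers. Beyond the lower bound on chromosome 4 the E11.5 excess went on, and the bin at chr4:145000001-146000000 held 38 E11.5 and 25 E10.5 peaks. On chromosome 8 the first E11.5 peak inside, at 19161692 to 19161859, had a signal per bp of 1.58, and the last one outside, at 18953977 to 18954607, had 2.40. On chromosome 5 the last peak inside, at 15933591 to 15935952 over the start of Cacna2d1, had 2.77, and the next one outside, at 16024625 to 16025006, had 2.65. On chromosome 4 the first peak inside, at 146056131 to 146056718, had 0.43, and the last before it, at 145851442 to 145851798, had 0.57.

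On chromosome 8 the peaks did not lie on the defensin genes. Peaks less than 50 kb apart were joined into stretches, and 5 stretches of at least 5 peaks held 309 of the 314 E11.5 peaks in 793 kb. They ran from 19682301 to 20835653, between the Defb7 gene, which ends at 19497775, and the Defb33 gene, which starts at 20892667. The RefSeq table places 62 genes with Defa or Defb symbols in the interval, and none of them overlapped these stretches. Only 3 of the 62 overlapped a peak in either list, and these were the same in both, the beta-defensin genes Defb10, Defb11 and Defb14.

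Defb11, at 21905374 to 21906432, had a peak over its start site with a signal of 1385 at E10.5 and 1226 at E11.5. Defb10 had signals of 638 and 312 over its start site, and Defb14 had 351 and 265. None of the alpha-defensin genes overlapped a peak. The label of defensin gene copies therefore describes the interval but not the sequence under its peaks.

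The stretches on chromosome 8 instead held long genes and pseudogenes with few or no E10.5 peaks. Gm15319 (20337664 to 20363202) overlapped 17 E11.5 peaks and 0 E10.5 peaks. Gm21119 (20614404 to 20646749) overlapped 19 and 0, 9530057J20Rik (19903378 to 19935330) 12 and 0, and 4930467E23Rik (19704311 to 19753603) 19 and 5. Among pseudogenes, Gm20778 overlapped 13 and 0, Gm21092 11 and 0, and Gm21811 8 and 0. The transcribed pseudogenes 2610005L07Rik and 6820431F20Rik overlapped 19 and 15 peaks at E11.5, and 7 and 4 at E10.5. Genes other than Gm15319 in this paragraph were named after their values were seen.

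Within the stretches, peaks covered between 30.8% and 71.2% of the sequence at E11.5. The stretch at 20257665 to 20441771 had 90 E11.5 and 24 E10.5 peaks, and the one at 20493685 to 20706886 had 86 and 20. The stretch at 19905844 to 20157467, with 82 E11.5 peaks and 9 E10.5 peaks, had the most peaks without overlap after these, 73.

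On chromosome 5, 2 stretches held 158 of the 166 E11.5 peaks and 52 of the 68 E10.5 peaks. They lay at 14900124 to 15055054 (60 and 17 peaks) and at 15462236 to 15748198 (98 and 35 peaks), and together contained all 5 genes with Speer symbols in the interval. Each of the 5 overlapped an E11.5 peak and 4 overlapped an E10.5 peak. The transcribed pseudogene Speer8-ps1 overlapped 18 peaks at E11.5 and 4 at E10.5, and Speer4cos 11 and 7. The short protein-coding copies had fewer, with 3 and 2 for Speer4c, 2 and 1 for Speer4d, and 2 and 0 for Speer4e. Their gene models span 4766 to 4845 bp, against 33248 bp for Speer8-ps1 and 33887 bp for Speer4cos. E11.5 peaks per 10 kb were 6.258 for Speer4c, 4.196 for Speer4d and 4.128 for Speer4e. Speer8-ps1 had 5.414 and Speer4cos 3.246, so the short copies were not sparser as a group. Speer4c lies within Speer4cos, and its peaks are counted in both.

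Genes with other symbols shared these stretches. Gm10354 overlapped 3 E11.5 peaks and Gm17019 overlapped 1, both with 0 at E10.5. The long noncoding RNA gene Gm30613, named after its values were seen, overlapped 20 and 2. The single-copy genes at the edges of the chromosome 5 interval looked different. Sema3e, which encodes a secreted guidance cue, overlapped 1 E11.5 and 6 E10.5 peaks, and Pclo, which encodes a protein of the presynaptic zone, overlapped 2 and 2.

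On chromosome 4 the peaks were more scattered, and 8 stretches held 102 of the 112 E11.5 peaks. Of 15 zinc finger genes, 10 overlapped an E11.5 peak and 6 an E10.5 peak, and 56 of the 112 E11.5 peaks (50%) lay within them. These genes cover 58.3% of the interval, so the share is close to that of the sequence they occupy. Zfp978 overlapped 22 E11.5 and 2 E10.5 peaks, over a gene model of 267146 bp. Zfp982 overlapped 8 and 2, Zfp993 overlapped 7 and 4, and Zfp984 overlapped 3 and 1. Zfp600, Zfp992 and Zfp979 overlapped 6, 4 and 3 E11.5 peaks and 0 E10.5 peaks. Zfp987, Zfp981, Zfp988, Zfp985 and Zfp534 overlapped none in either list. Pseudogenes of vomeronasal receptors, which detect pheromones, lay among them, and Vmn2r-ps16 overlapped 17 E11.5 and 2 E10.5 peaks and Vmn2r-ps17 10 and 2, both named after their values were seen. Their gene models of 160377 and 140140 bp span other genes, among them Zfp992 and Zfp600 respectively, whose peaks are counted again here.

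**Figure D2:**
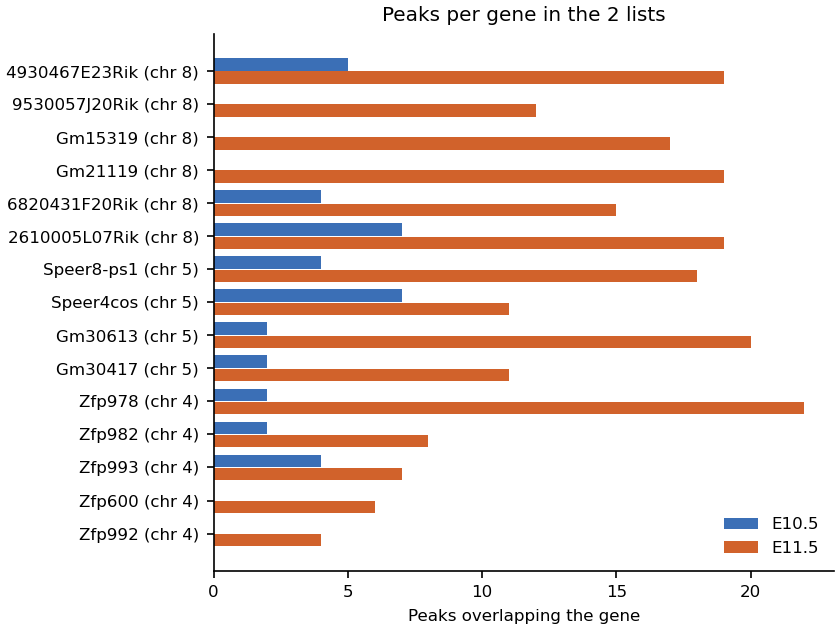
Number of peaks overlapping each of 15 genes of the intervals (x axis) in the E10.5 list (blue) and the E11.5 list (orange). The E11.5 bar is the longer one for each of these genes, which were picked for their E11.5 peaks, from 4 peaks in Zfp992 to 22 in Zfp978.

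Taking the 3 families together, 92 of the 592 E11.5 peaks (15.5%, 12.8 to 18.7%) overlapped a family gene, and these genes cover 20.1% of the intervals. The intervals differed in this. On chromosome 8, 0.955% of the peaks lay in family genes that cover 5.48% of the interval, and on chromosome 5, 19.9% lay in genes that cover 3.84%. The share over all was 32.01% without chromosome 8 and 7.50% without chromosome 4. At E10.5 the share was 14.3% (9.87 to 20.2%). Pseudogenes of any name overlapped 152 E11.5 peaks, which is 25.7% (22.3 to 29.3%), and cover 10.7% of the intervals. Their share of E10.5 peaks was 22.3% (16.8 to 29.0%). Annotated genes of any kind overlapped 54.4% (50.36 to 58.36%) of the E11.5 and 45.1% (37.95 to 52.54%) of the E10.5 peaks. These genes cover 41.35% of the intervals, which lies within the E10.5 range and below the E11.5 range.

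E11.5 peaks stood close together. The median gap from one peak's end to the next peak's start was 523 bp on chromosome 8, 904 bp on chromosome 5 and 2316 bp on chromosome 4. The corresponding gaps in the flanks were 29774 bp, 40563 bp and 12177 bp. At E10.5 the median gap was 2522 bp, 7013 bp and 21803 bp in the intervals, and 11877 bp, 24838 bp and 3251 bp in the flanks. Gaps under 1 kb made up 57.0% of 589 gaps in the intervals at E11.5 and 10.8% of 231 in the flanks, while at E10.5 they made up 22.7% and 18.2%. Within the intervals the smallest gap was 102 bp at E11.5 and 106 bp at E10.5.

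**Figure D3:**
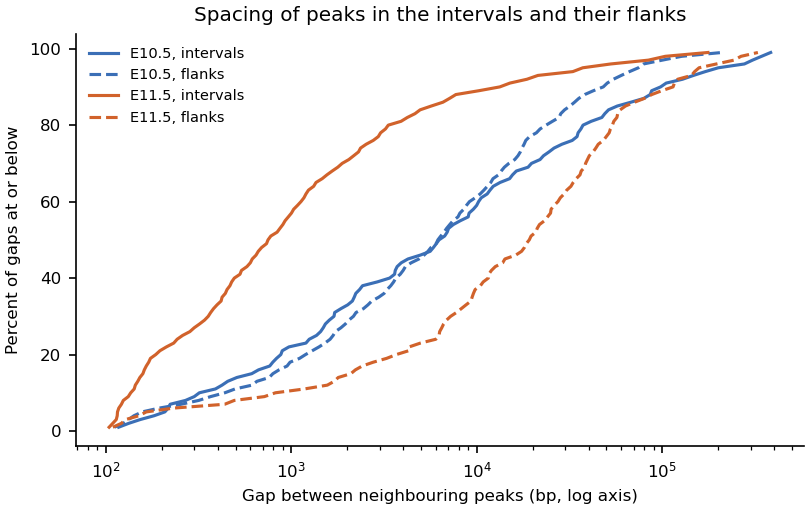
Cumulative percent of gaps (y axis) by gap length in bp (log axis) between neighbouring peaks of the E10.5 (blue) and E11.5 (orange) lists, in the intervals (solid) and their flanks (dashed). The E11.5 gaps in the intervals are the shortest of the 4 sets, with a median of 748 bp, and those in the E11.5 flanks the longest, with a median of 19171 bp.

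The E11.5 peaks in the intervals were broad and shallow. Their median width was 800 bp (95% interval of the median from binomial ranks 742 to 831 bp), against 528 bp (444 to 644 bp) in the flanks and 594 bp in the rest of the list. It was 855 bp (801 to 942 bp) on chromosome 8, against 728 bp (405 to 923 bp) in its flanks. On chromosome 5 it was 666 bp (597 to 755 bp) against 345.5 bp (294 to 406 bp). On chromosome 4 it was 815 bp (709 to 883 bp) against 642.5 bp (502 to 753 bp). The ranges overlapped on chromosomes 8 and 4. The signal value, column 7 of the deposited lists, behaves as a total over the peak, and its median per bp was 0.72 (0.69 to 0.76) in the intervals. It was 1.43 (1.28 to 1.58) in the flanks and 1.49 in the rest. At E10.5 the median width was 671 bp in the intervals and 642 bp in the flanks, and the median signal per bp was 1.01 (0.85 to 1.11) and 1.46 (1.34 to 1.57). Signal per bp was thus lower in the intervals than in the flanks within each list. On chromosome 4 this held for E11.5 (0.67 and 1.35) but not for E10.5 (1.98 and 1.39). The intervals around these medians also treat peaks as independent. No listed peak has a signal below 200, so a peak of low signal per bp is listed only if it is wide.

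Signal per bp was lowest for the peaks without an E10.5 counterpart. For shared peaks, pooled over the intervals, it was also below that of shared peaks elsewhere, but not on chromosome 4. The 470 peaks without a counterpart had a median signal per bp of 0.65 (0.62 to 0.67), a median width of 737 bp (696 to 794 bp) and a median −log10 p of 3.74. The 122 shared peaks had a signal per bp of 1.204 (1.12 to 1.42), a width of 1228 bp and a −log10 p of 5.10, against 1.516 (1.504 to 1.526) per bp for the 34216 shared E11.5 peaks elsewhere. By interval, shared peaks had 1.29 (1.14 to 1.54) on chromosome 8, 1.03 (0.96 to 1.15) on chromosome 5 and 2.37 (1.62 to 2.90) on chromosome 4. Elsewhere in the genome, the 2605 E11.5 peaks without overlap were narrower, with a median of 314 bp (305 to 322 bp). Their median signal per bp was 1.25 (1.22 to 1.28) and their median −log10 p 4.36. Only 5 of the 470 peaks (1.06%, 0.455 to 2.47%) reached a −log10 p of 5, against 681 of the 2605 elsewhere (26.1%). The lack of overlap chose these intervals, and signal and width were not used in the choice. They are not free of it, since lack of overlap goes with both elsewhere. Of the shared E11.5 peaks elsewhere 56.3% reached a −log10 p of 5, and their median width was 635 bp.

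**Figure D4:**
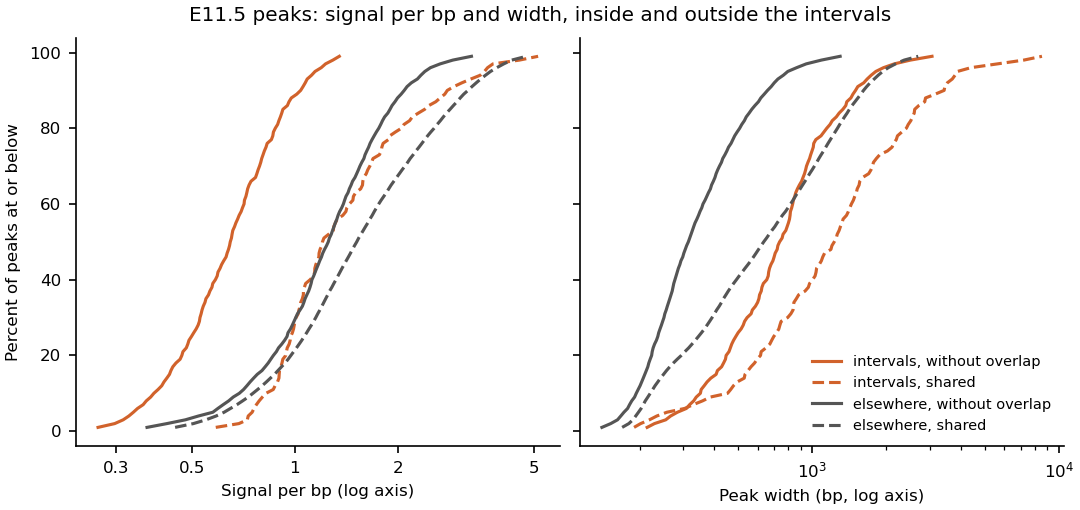
Cumulative percent of E11.5 peaks (y axis) by signal per bp (left, log axis) and width in bp (right, log axis), for peaks in the intervals (orange) and elsewhere on the chromosomes (grey), without overlap with an E10.5 peak (solid) or shared (dashed). Peaks of the intervals without overlap lie furthest to the left in signal per bp, with a median of 0.65, and are wider than such peaks elsewhere, with medians of 737 and 314 bp.

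The choice of threshold changed the comparison of numbers. With peaks of −log10 p of at least 5 only, 70 E11.5 and 62 E10.5 peaks remained in the intervals, a ratio of 1.13. The numbers were 29 and 30 on chromosome 8, 22 and 11 on chromosome 5, and 19 and 21 on chromosome 4. The ratio was 0.390 in the flanks and 0.354 outside the intervals under the same threshold. With both lists held to this threshold, the E11.5 share without an E10.5 overlap came to 35.7%. Against the full E10.5 list, 65 of the 70 E11.5 peaks were shared and 5 lacked overlap. Outside the intervals, 681 of the 19944 E11.5 peaks that reached this threshold lacked overlap with the full E10.5 list. The share over all E11.5 peaks with both lists held to the threshold was not computed.

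The strongest peaks of the intervals were found in both lists. On chromosome 8 the highest signal per bp in each list was at the short pseudogene Gm10060 (19784746 to 19784850). The E10.5 peak there, at 19783977 to 19785652, had a signal per bp of 5.99 and a −log10 p of 17.9. The E11.5 peak, at 19783574 to 19786103, had 5.51 and 19.5. Pseudogenes of the same length recurred at Gm20583 (20297324 to 20297428), where the signal per bp was 3.66 in the E10.5 list and 3.64 in the E11.5 list. At Gm20584 (20424592 to 20424696) it was 4.17 and 5.04. A further strong pair of peaks lay in no annotated gene, at 20121631 to 20123349 at E10.5 (5.401) and at 20121073 to 20123960 at E11.5 (5.16). All 4 sites were thus listed with a high signal per bp at both stages. Gm20583 and Gm20584 were named after their values were seen.

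The widest E11.5 peak of the intervals, of 12457 bp at chr8:20378232-20390688, lay over Gm7807 and 2610005L07Rik, with a signal of 23339. It spanned 6 separate E10.5 peaks. The next by signal, at 20587913 to 20596759 over Gm21112, spanned 3, and the one at 20544848 to 20552288 over Gm40469 spanned 4. Of the 122 shared E11.5 peaks, 18 spanned more than 1 E10.5 peak, and 96 were wider than the E10.5 peaks under them. The E11.5 peak of highest signal without overlap on chromosome 8, at 20287096 to 20290390 in 6820431F20Rik, had a signal of 3235.

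On chromosome 5 the strongest peaks were at single-copy genes. At the start of Cacna2d1, which encodes a calcium channel subunit, and Gm3510, the signal was 9833 at E10.5 (15933529 to 15936167) and 6549 at E11.5 (15933591 to 15935952). At the start of Pclo it was 5692 at E10.5 (14514586 to 14515710) and 5294 at E11.5 (14514394 to 14515987). Next at E11.5 came the widest peak of the interval, 4305 bp between genes at 15506220 to 15510524, with a signal of 5255 over 2 E10.5 peaks. The strongest E11.5 peak without overlap, at 14987707 to 14990241 between genes, had a signal of 1999.

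On chromosome 4 the strongest E11.5 peak lay over one end of Zfp978, at 147123679 to 147126254, with a signal of 8258 against 4202 at E10.5. The peak shared by Miip and Fv1, the latter a gene that restricts retroviruses, had 6852 at E11.5 and 4919 at E10.5. At the first start site of Zfp982, whose sequence is given above, the signal was 6230 for the E11.5 peak (147442023 to 147444088) and 3408 for the E10.5 peak (147442930 to 147444028). Per bp it was 3.02 and 3.10. The widest E11.5 peak on chromosome 4, of 5024 bp at 147399868 to 147404891, lay between genes, had a signal per bp of 0.80 and overlapped no E10.5 peak.

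Promoters were examined in windows from 250 bases before to 50 bases after the RefSeq start sites, which were available for 83 of the 215 genes of the intervals. A peak touched the window of 27 of the 83 at E11.5, where 46.3% of 27025 genes genome-wide had one, and of 19 at E10.5, where 53.3% did. Both counts lie below those shares, and the difference was not tested. In 9 genes there was an E11.5 and no E10.5 peak, against 0.507% of those 27025 genes, and the lack of overlap had chosen the intervals. They were 4930467E23Rik, Gm15319, Gm21119, Gm40469 and Gm46074 on chromosome 8, and Gm10354, Gm21083, Gm30613 and Speer4c on chromosome 5. At Gm40469 the window was reached only by the end of an E11.5 peak of 7441 bp that spanned 4 E10.5 peaks. At Gm10354 the E11.5 peak began 20 bases past the start site. Of the 12 zinc finger genes with a start site in the table, Zfp982, Zfp984 and Zfp933 had a promoter peak at both stages, and the other 9 had none in either list, against the 53.3% and 46.3% of all genes with one at E10.5 and E11.5. The signal at Zfp984 was 1284 in the E10.5 list and 2651 in the E11.5 list, and per bp 1.99 and 2.79. At Zfp933 it was 1728 and 2599, under a wider E11.5 peak (1294 against 792 bp), and per bp it was 2.18 and 2.01.

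The 3 chromosome 8 genes of identical promoter allowed the peaks of copies to be laid over each other. At E11.5 the peak over the start site ran from -1833 to 927 bases in 4930467E23Rik, from -1571 to 1333 bases in Gm15319, and from -1534 to 911 bases in Gm21119, counted from the start site with negative values before it. The signals were 2932, 2393 and 1613, and the signal per bp was 1.06, 0.82 and 0.66. At E10.5 none of the 3 had a peak at the start site, but each had one upstream, whose near end was at -4737, -4737 and -4778 bases, with signals of 943, 566 and 857. In each list, the 3 copies shared these features.

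Between 20 kb before and 30 kb after the start site, 4930467E23Rik had 18 E11.5 and 3 E10.5 peaks, Gm15319 29 and 4, and Gm21119 27 and 4. E11.5 peaks covered 33.9%, 62.9% and 62.0% of these windows, and 21.2% of positions were covered in all 3. Between aligned copies, the share of one copy's E11.5 peaks that overlapped a peak of another ranged from 40.7% (Gm21119 peaks on those of 4930467E23Rik) to 88.9%, with a median of 78.5% over the 3 pairs in both directions. At E10.5 it ranged from 50% to 100%, with a median of 87.5%, over 3 or 4 peaks per copy. An overlap of 1 bp was enough for a match, and high coverage raises such a share. Unrelated windows of like coverage were not compared. Reads from an identical stretch cannot be assigned to one copy by sequence, so peaks of copies are not independent. Identity beyond the promoter windows was not examined here, and how far these peaks share reads was not tested.

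**Figure D5:**
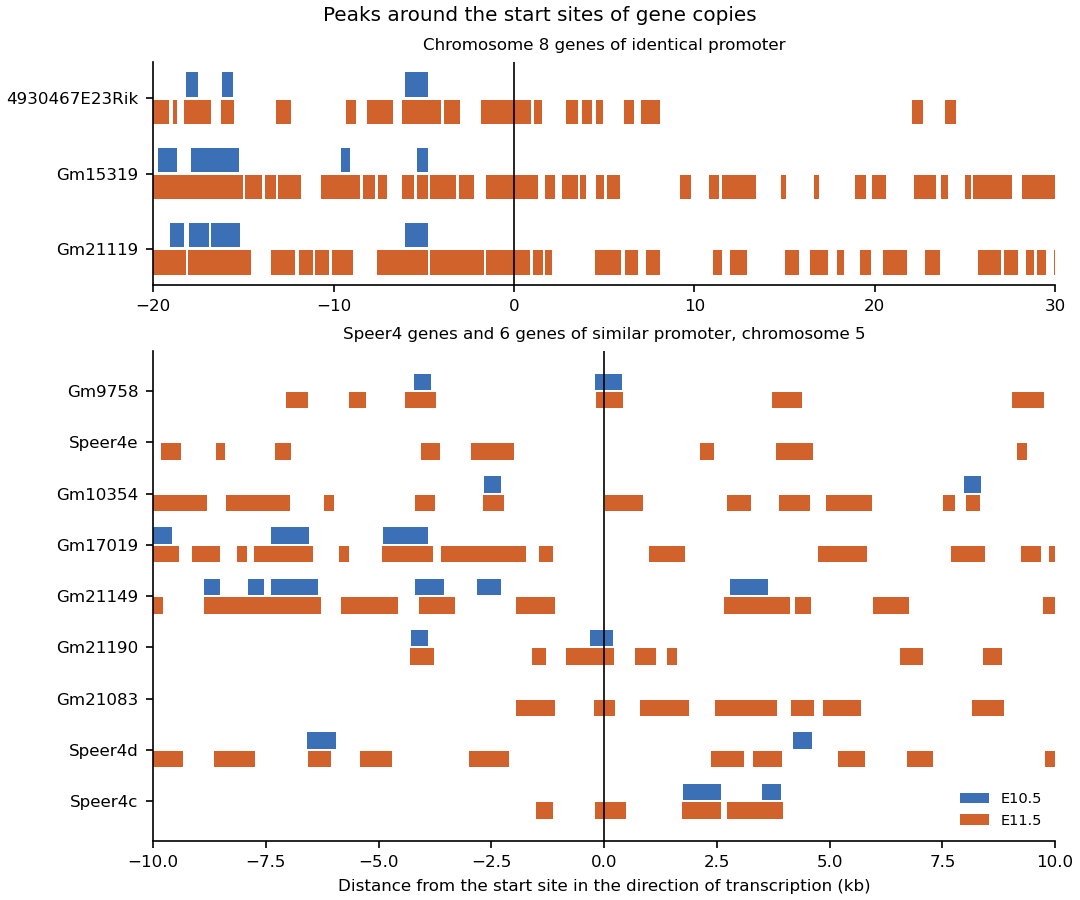
Peaks of the E10.5 (blue) and E11.5 (orange) lists as horizontal bars by distance in kb from the start site, in the direction of transcription (vertical line at 0), for 3 chromosome 8 genes of identical promoter (top) and 9 chromosome 5 genes (bottom). In the top panel each gene has an E11.5 bar across the start site and an E10.5 bar to the left of it, ending at -4737, -4737 and -4778 bases.

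On chromosome 5, the 3 Speer4 genes and 6 neighbours of similar promoter were compared in the same way. Their promoter windows were 76.0% to 98.7% identical in the 36 pairs, with a median of 89.0%. An E11.5 peak touched 5 of the 9 promoters, near the 46.3% of all genes. An E10.5 peak touched 2, those of Gm9758 and Gm21190, where 53.3% of all genes had one. The Speer4c peak had a signal of 267, where the lowest in the E11.5 list is 200.006, and a −log10 p of 3.07. At E10.5 the signal was 284 for Gm9758 and 290 for Gm21190, and at E11.5 it was 693 and 804. Within 10 kb of the start site each of the 9 genes had between 4 (Speer4c) and 13 (Gm17019) E11.5 peaks and between 0 (Speer4e, Gm21083) and 6 (Gm21149) E10.5 peaks. No position of this window was covered at E11.5 in all 9 genes.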

How the data were processed

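Accessible chromatin was mapped in 4 wild-type limb samples, 2 per stage, grouped by their titles. The deposited data are 2 narrowPeak lists on mm10, per the file headers, 1 per stage for both replicates. The submitters' processing notes name cutadapt, Bowtie2, SAMtools, deepTools and Genrich, without versions or roles. Filters, the treatment of reads that map to several places and the way replicates were joined are not given in the sources used here. The signal value was set by the authors and has a minimum just above 200 (200.002 at E10.5, 200.006 at E11.5). The −log10 p was set by the authors for each peak. The deposited score equals signal per bp times 1000, capped, and was not used. The deposited q-value column holds -1 throughout. Other columns give positions and summits. Depth per sample is unknown.

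The members and lists were chosen with earlier results of these data known. A peak counted as shared if 1 bp or more of it lay in a peak of the other list. Shares carry 95% Wilson intervals and medians an interval from binomial ranks. No test was run, since each list joins its replicates. The functions were tested on simulated data. Gene bodies and promoters came from RefSeq (GRCm38.p6). The gene table holds no descriptions, so families were taken by symbol (Defa, Defb, Speer, Zfp, Rex2). The mouse sequence of the other build provided was not used. Named by rule were up to 8 family genes per interval with the most E11.5 peaks within 1 kb, 5 genes of the earlier account, and in each interval the peaks highest in signal, signal per bp and width. Genes and peaks named beyond this were chosen after their values were seen. Promoter identity came from global alignments (Biopython 1.88), and other steps used Python 3.11.15, pandas 2.3.3 and scipy 1.17.1. The alternatives tried are given in the closing section.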

Additional observations from a re-analysis of the deposited data

How the results depend on the processing

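No paired analysis was possible because the 2 replicates of a stage share 1 list. Leaving out a replicate was likewise impossible. Sequencing depth, which limits how many shallow peaks a list holds, is unknown. Over 17 results and 14 alternative settings, 24 values kept to their criterion (within 1.5 times for a number, within the 95% interval for a share or median) and 41 moved. The threshold of −log10 p of at least 4 was chosen after seeing the data.

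With −log10 p of at least 5, which by construction leaves fewer peaks, there were 30, 11 and 62 E10.5 peaks on chromosome 8, on chromosome 5 and in all, and 29, 22, 19 and 70 E11.5 peaks on chromosomes 8, 5 and 4 and in all. The share without overlap was 35.7% with both lists held to this threshold. The median gaps on chromosomes 8, 5 and 4 were 11276, 34021 and 32364 bp. The median width was 1497 bp, the median signal per bp 1.67 and the share in family genes 21.4%. With at least 4 there were 106 E10.5 and 254 E11.5 peaks, 68.9% without overlap. With the E10.5 list reduced to the length of the E11.5 list by signal, it held 20, 5, 16 and 41 peaks on chromosomes 8, 5 and 4 and in all, and 93.8% of E11.5 peaks lacked overlap. A reduced E10.5 list cannot lower this share, in the intervals or elsewhere. The share over all E11.5 peaks was 8.22% in the main setting. It was not computed with both lists held to another threshold, for the reduced list or for the other overlap rules. At −log10 p of at least 5 the E11.5 excess was lost on chromosomes 8 and 4 (ratios 0.967 and 0.905), while the ratio was 2 on chromosome 5.

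Trimming the intervals left 12 E10.5 peaks on chromosome 4. The share without overlap was 86.8% with 50% reciprocal overlap and 86.0% with summits within 100 bp. Gaps from summit to summit were 1779 bp on chromosome 8 and 1712 bp on chromosome 5. The share in family genes was 23.0% within 10 kb and 11.1% for protein-coding genes only. Without the chromosome 8 interval there were 94 E10.5 and 278 E11.5 peaks, 73.7% without overlap, a width of 720 bp, a signal per bp of 0.79 and 32.01% in family genes. Without chromosome 5 there were 107 E10.5 peaks, 83.3% without overlap, a width of 837 bp and a signal per bp of 0.68. Without chromosome 4, 7.50% of E11.5 peaks lay in family genes. In bins of 500 kb, 3.33% had more E11.5 than E10.5 peaks. The cause of these differences was not tested.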
